A study of Mus musculus with 9 samples.

Results

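NF-κB is a family of dimeric transcription factors built from 5 subunit genes, and its activity is limited by proteins whose own genes it switches on. Here 10 such genes were followed in MC38 cells, a mouse colon carcinoma line, after copper-cystine treatment. They were the subunit genes Nfkb1, Nfkb2, Rel, Rela and Relb, the inhibitor genes Nfkbia and Nfkbie, and 3 further feedback genes, Tnfaip3, Birc3 and Bcl3. The genes were chosen by symbol from knowledge of the pathway, with earlier results of these data known. All 10 were found among the 16509 genes of the deposited table and passed the filter on low counts, as did 11949 genes in all. The table lists them under the Entrez numbers 18033 (Nfkb1), 18034 (Nfkb2), 19696 (Rel), 19697 (Rela), 19698 (Relb), 18035 (Nfkbia), 18037 (Nfkbie), 21929 (Tnfaip3), 11796 (Birc3) and 12051 (Bcl3).

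Messenger RNA was sequenced from 9 libraries of this one line, 3 of control cells (Ctrl), 3 of Cu-Cys-treated cells and 3 of Cadict-treated cells. Cu-Cys is copper chloride with cystine. Cadict is a nanodrug that holds copper ions, cystine and the enzyme glucose oxidase and carries GE11, a peptide that binds the EGF receptor. The labels name DMSO as the control treatment, whereas the study's methods name PBS, and neither gives a dose or a time for these libraries. The labels number the replicates without saying whether they were separate cultures. The study's methods describe the n of its figure legends as biological replicates without saying how these libraries were made, so p-values measure the spread between these samples, part of which may be technical.

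In resting cells, NF-κB dimers are held in the cytoplasm by inhibitor of κB (IκB) proteins. Signals from cytokine and pattern recognition receptors activate the IκB kinase (IKK) complex, the IκB proteins are degraded, and dimers such as p50 with RelA enter the nucleus in the canonical pathway. In the non-canonical pathway the p100 product of Nfkb2 is processed to p52, which acts with RelB. Among the genes induced are those of IκBα, IκBε, the ubiquitin-editing enzyme A20 and the ubiquitin ligase cIAP2, which act back on the pathway.

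Promoter windows of 6 members held letters that match the sequence NF-κB binds. Windows from 250 bases before to 50 bases after each annotated start site were taken from RefSeq on GRCm38.p6 and searched on both strands for the 10-base κB consensus, with overlapping matches counted separately. Entries were found for 8 member genes (all but Nfkb1 and Relb), with 11 windows. Of these genes, 6 held at least 1 match (75%), beside 1388 of 27025 genes (5.14%) over all windows given. By window, 8 of 11 member windows and 1480 of 32851 in all (4.51%) held a match. Windows 2 and 3 of Nfkb2 overlap, and the match on the gene's strand is the same stretch in both. The genes with a match were Nfkb2, Rel, Nfkbia, Nfkbie, Tnfaip3 and Bcl3. No match lay in the windows of Rela (chr19:5637291-5637590) or Birc3 (chr9:7873121-7873420). A match describes letters and not a bound site, and no other motif was searched. The members include genes known to be switched on by NF-κB, so their share with a match was not independent of how they were chosen.

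The stretches around the matches, for Nfkb2 only those of window 1, are printed 5′ to 3′ on each gene's own strand, with the matched bases in capitals. They lie at chr19:46304678-46304736 on the plus strand (Nfkb2), chr11:23771031-23771081 on the minus strand (Rel), chr12:55492648-55492696 on the minus strand (Nfkbia), chr17:45555574-45555623 on the plus strand (Nfkbie), chr10:19015411-19015555 on the minus strand (Tnfaip3) and chr7:19822734-19822763 on the minus strand (Bcl3).
Nfkb2: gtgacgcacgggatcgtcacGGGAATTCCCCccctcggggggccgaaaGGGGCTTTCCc
Rel: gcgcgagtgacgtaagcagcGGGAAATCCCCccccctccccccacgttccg
Nfkbia: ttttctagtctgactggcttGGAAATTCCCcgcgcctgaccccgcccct
Nfkbie: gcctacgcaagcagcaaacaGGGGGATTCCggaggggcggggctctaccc
Tnfaip3: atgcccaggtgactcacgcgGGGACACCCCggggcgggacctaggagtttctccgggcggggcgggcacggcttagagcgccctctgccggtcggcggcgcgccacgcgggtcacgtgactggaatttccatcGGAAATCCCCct
Bcl3: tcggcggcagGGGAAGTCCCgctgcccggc
The longer capital runs of Nfkb2 and Rel hold 3 overlapping matches each. Counted from the start site, the Nfkbia match ended at -20 and the Nfkbie match at -97, whereas the Bcl3 match began at position 3 of the transcript.

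**Figure D1:**
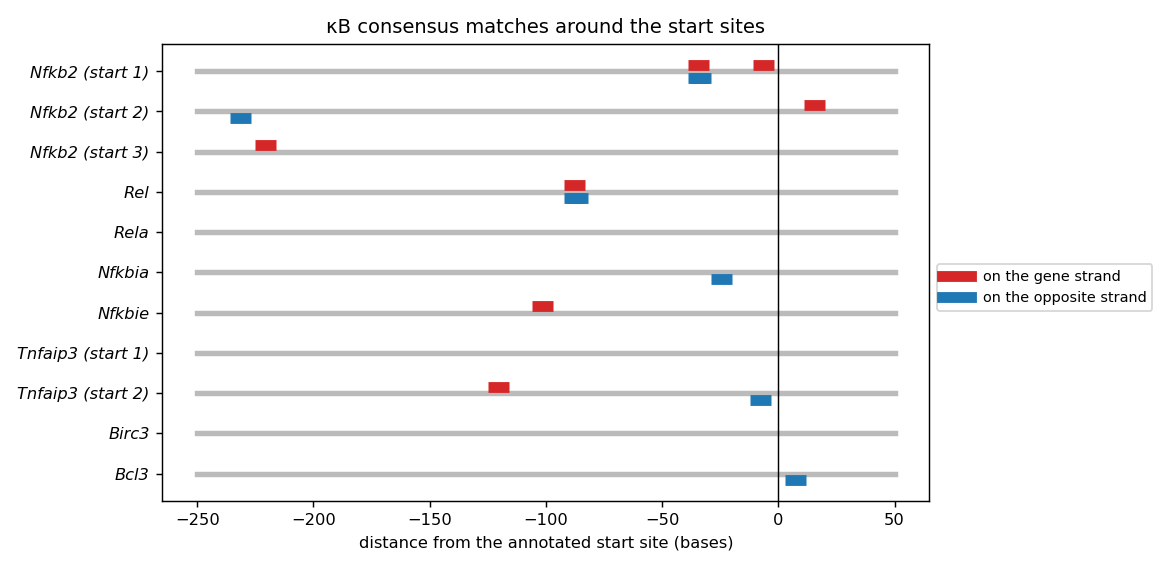
Positions of κB consensus matches in the 11 windows of the 8 member genes with an entry. Each grey line is one window from 250 bases before to 50 bases after a start site, the horizontal axis gives the distance in bases, and blocks above and below the line are matches on the gene's strand and on the opposite strand. The windows of Rela and Birc3 and the first of Tnfaip3 are empty.

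Levels are given as CPM, the counts of a gene relative to the library's total after scaling by edgeR's TMM factors, which align the libraries on their typical gene. Comparisons between different genes use TPM, which corrects for transcript length. The total count per library was 17905769 to 18293060. The 100 most abundant genes took 17.2% to 17.4% of the counts in Ctrl, 17.9% to 18.2% in Cu-Cys and 29.8% to 31.1% in Cadict libraries. TMM factors were 1.262 to 1.274, 1.206 to 1.209 and 0.6395 to 0.6654. When libraries were scaled by their totals alone, the median log2 fold change over the genes tested moved by -0.95 (Cadict against Ctrl), -0.88 (Cadict against Cu-Cys) and -0.068 (Cu-Cys against Ctrl). A change under TMM is therefore relative to the typical gene, and values under library totals are given for each member. With TMM, the median gene stood at -0.13 in Cadict against Ctrl, 0.0067 in Cu-Cys against Ctrl and -0.099 in Cadict against Cu-Cys.

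A gene was called when it changed by 2-fold or more with an adjusted p no larger than 0.001, the threshold of the study's methods. The p-values came from the quasi-likelihood test of edgeR and were adjusted by Benjamini-Hochberg over all genes tested. A looser threshold, an adjusted p no larger than 0.05 at any fold, is given beside it, and changes that passed it are described as rises or falls. The cells were checked against markers. Of 8 colon epithelial markers, 7 were in the table, and Krt8, Krt18, Epcam, Cldn4 and Vil1 had at most 17 counts in any library, so epithelial identity was not shown by its usual markers. Only Krt19 and Cdh1 among them were tested, and both were called higher with Cadict (log2 fold change 3.35 and 1.39), although under library totals Cdh1 was at 0.44, below the limit on the fold (Krt19 2.39). The leukocyte markers Ptprc, Itgam and Lyz2 had at most 10 counts in any library. Of the endothelial markers, Pecam1 did not pass in any comparison and Cdh5 had too few counts to be tested. Of 3 fibroblast markers, Pdgfra was at 39.1 ± 3.73 CPM in Ctrl, 22.8 ± 1.91 in Cu-Cys and 6.49 ± 1.33 in Cadict cells (SD, n = 3), Col1a1 was at 19.0 ± 1.44, 6.96 ± 0.73 and 6.73 ± 1.24 CPM, and Dcn, with no more than 17 counts in any library, was at 0.608 ± 0.158, 0.565 ± 0.054 and 1.08 ± 0.17 CPM. Dcn was thus higher in Cadict than in Ctrl cells with TMM (log2 fold change 0.82, adjusted p = 0.0188) but at -0.12 under library totals. The part of these marker changes in the results was not tested. In such bulk RNA, fewer cells of one kind and less RNA per cell cannot be told apart.

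With Cadict, 4 of the 5 inhibitor and feedback genes fell furthest of the members, the exception being Tnfaip3, whereas the canonical subunit genes Rela and Nfkb1 rose relative to the typical gene but not under library totals. Nfkbia, Nfkbie, Birc3 and Bcl3 were called lower in Cadict-treated than in Ctrl cells, by 3.11-fold to 14.1-fold, and 0 members were called higher by edgeR or DESeq2 (2 were higher at an unadjusted p under 0.05). These 4 of 10 members stand beside 27.1% of all tested genes called lower and 20.7% called higher. At the looser threshold 7 members were lower and 2, Nfkb1 and Rela, were higher, where the shares over all genes were 47.1% and 40.6%. With so many genes called in this comparison, the count of members alone does not set them apart from the rest.

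With Cu-Cys, most members were lower, and each of the 4 genes called with Cadict changed by less than 2-fold. Only Tnfaip3 was called, lower by 2.76-fold, where 1.47% of all genes were called lower and 0.167% higher. At the looser threshold 8 of 10 members were lower, beside 22.4% of all genes, and 0 were higher in edgeR's test, beside 22.6% (0 also at an unadjusted p under 0.05, and 0 called higher by DESeq2). Rel and Rela were the members that did not pass. In Cadict against Cu-Cys, Tnfaip3 was called higher and Nfkbia, Nfkbie and Birc3 lower, beside 18.6% of genes called higher and 23.6% lower. At the looser threshold 3 members were higher and 5 lower there, beside 40.3% and 45.6%. The comparisons share libraries and are not independent of each other.

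**Figure D2:**
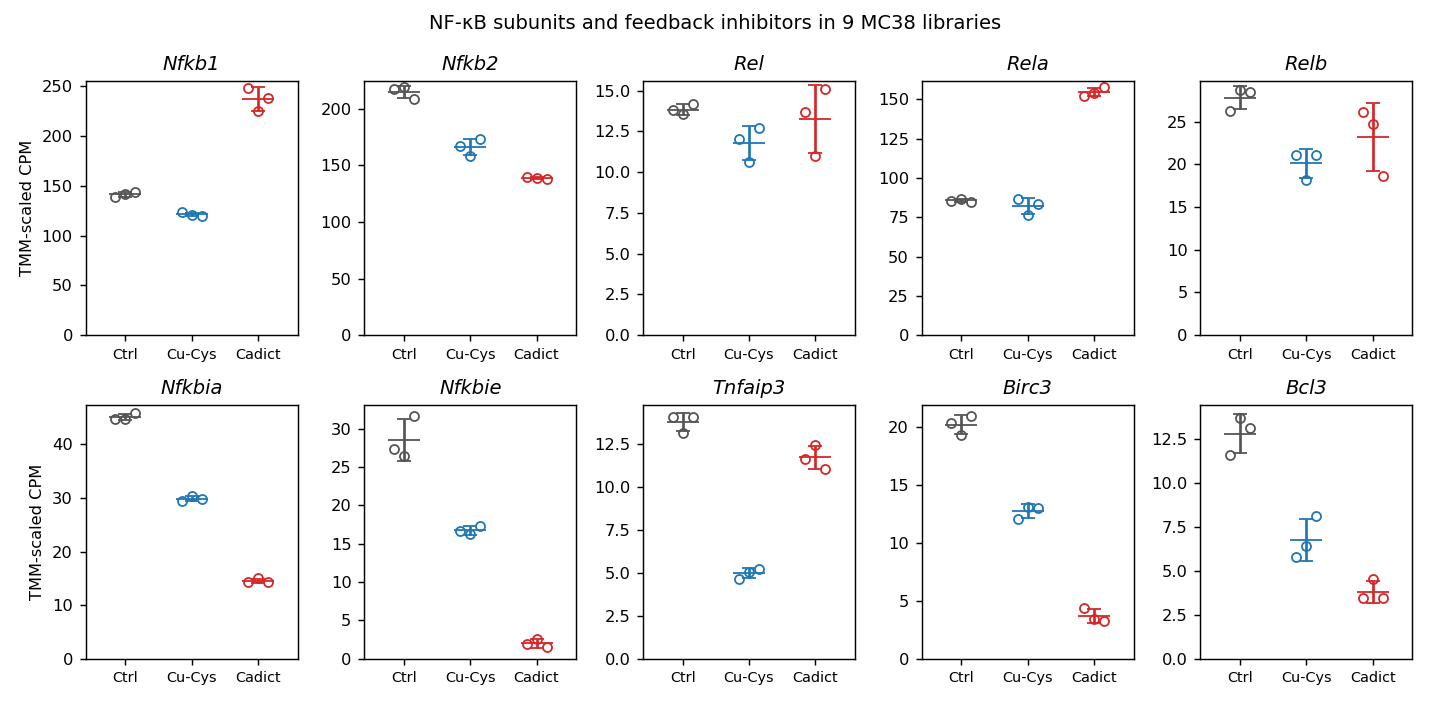
TMM-scaled CPM of the 10 genes in each of the 9 libraries (circles), with the mean as a horizontal bar and the SD as the error bar (n = 3 per group); each panel has its own vertical axis from 0. Nfkbia, Nfkbie, Birc3 and Bcl3 step down from Ctrl to Cu-Cys to Cadict without overlap, Tnfaip3 is lowest in Cu-Cys, and Nfkb1 and Rela are highest in Cadict on this scale.

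Rela encodes RelA (p65), the main transactivating subunit of the canonical pathway. Its level was 85.56, 86.84 and 84.68 CPM in Ctrl, 86.7, 76.73 and 83.46 CPM in Cu-Cys and 152.3, 154 and 157.6 CPM in Cadict libraries. The Cadict libraries lay well above the rest, and those of Ctrl and Cu-Cys overlapped. In Cadict against Ctrl the log2 fold change was 0.85 (SE 0.0528, adjusted p = 3.2e-10), and under library totals the sign turned to -0.10 (adjusted p = 0.0954). The change with Cu-Cys did not pass, at -0.06 (SE 0.0526, adjusted p = 0.39). Raw Rela counts were 1942 to 2006 in Ctrl and 1767 to 1877 in Cadict libraries of nearly the same total, where the median gene was at -1.08 under library totals.

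Nfkb1 encodes p105, the precursor of p50, which pairs with RelA. Its level was 138.5, 141.7 and 143.9 CPM in Ctrl, 123.3, 120.5 and 120 CPM in Cu-Cys and 248.2, 224.9 and 238 CPM in Cadict libraries. The 3 groups did not overlap, with Cu-Cys lowest and Cadict highest. In Cadict against Ctrl, Nfkb1 rose by 0.75 on the log2 scale with TMM (SE 0.0491, adjusted p = 6.74e-10) but was lower under library totals, at -0.21 (adjusted p = 0.00187). Its fall in Cu-Cys against Ctrl was small under both scalings, -0.22 with TMM (SE 0.049, adjusted p = 0.00206) and -0.29 with library totals. In Cadict against Cu-Cys it rose by 0.97 with TMM (SE 0.0495, adjusted p = 3.85e-11), just under the limit on the fold, and stood at 0.083 under library totals, where the groups overlapped.

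Nfkb2 encodes p100, which is both the precursor of p52 and an IκB-like inhibitor of RelB. Its level was 217.1, 219 and 208.9 CPM in Ctrl, 167.5, 158.5 and 173 CPM in Cu-Cys and 139.5, 139.1 and 137.9 CPM in Cadict libraries. The groups did not overlap, and the lowest was Cadict, in which Nfkb1 was highest. Against Ctrl the log2 fold change with Cadict was -0.63 (SE 0.0491, adjusted p = 5.39e-09), with Cu-Cys -0.37 (SE 0.0477, adjusted p = 2.53e-05), and it was -0.26 in Cadict against Cu-Cys (SE 0.0492, adjusted p = 0.00014). Under library totals these were -1.58, -0.44 and -1.15, so the direction did not depend on the scaling. Of the 50-base stretches of its transcripts, 14.9% also occurred in another annotated gene, and exons of Psd and AC114539.1 lie on its opposite strand. Whether the counting used strand is not given in the sources used here, so reads of these genes may not have been kept apart.

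Relb encodes RelB, the partner of p52. Its level was 26.21, 28.7 and 28.52 CPM in Ctrl, 21.09, 18.15 and 21.07 CPM in Cu-Cys and 26.09, 24.75 and 18.64 CPM in Cadict libraries. Cadict replicate 3 lay within the Cu-Cys range and the highest Cadict library just under the lowest Ctrl one. The clearest change was the fall in Cu-Cys against Ctrl, -0.47 on the log2 scale (SE 0.0964, adjusted p = 0.00119). In Cadict against Ctrl it was -0.27 (SE 0.103, adjusted p = 0.0252) with TMM and -1.22 with library totals. The value of 0.20 in Cadict against Cu-Cys did not pass (adjusted p = 0.0879) and was -0.68 under library totals.

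Rel encodes c-Rel, a subunit best known from lymphocytes, and was the least abundant of the 5. Its level was 13.8, 13.55 and 14.17 CPM in Ctrl, 12.04, 10.65 and 12.68 CPM in Cu-Cys and 13.68, 10.98 and 15.11 CPM in Cadict libraries. The Cadict libraries were the most spread and overlapped with both other groups. No comparison passed with TMM, with adjusted p = 0.603 in Cadict against Ctrl (log2 fold change -0.06, SE 0.107), 0.0668 in Cu-Cys against Ctrl (-0.23, SE 0.0978) and 0.156 in Cadict against Cu-Cys (0.17, SE 0.11). Under library totals Rel was lower in Cadict than in Ctrl cells, at -1.01 (adjusted p = 2.18e-07), close to the median of all genes on that scale (-1.08).

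Nfkbia encodes IκBα, the inhibitor that is resynthesised fastest after NF-κB activation. Its level was 44.81, 44.81 and 45.83 CPM in Ctrl, 29.39, 30.41 and 29.87 CPM in Cu-Cys and 14.28, 14.99 and 14.27 CPM in Cadict libraries. The 3 groups were narrow and far apart. In Cadict against Ctrl it fell by 1.64 on the log2 scale (SE 0.0638, adjusted p = 1.18e-12), a 3.11-fold difference at percentile 16.2 of all tested genes. In Cu-Cys against Ctrl it fell by 0.59 (SE 0.053, adjusted p = 8.48e-07). It fell by 1.04 between Cu-Cys and Cadict cells (SE 0.0661, adjusted p = 5.02e-10), close to the limit on the fold, and under DESeq2's size factors this was -0.95 and not called. Library totals gave larger falls, with log2 fold changes of -2.59, -0.66 and -1.93 in the same order.

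Nfkbie encodes IκBε, a slower feedback inhibitor of RelA and c-Rel dimers, and changed most of the members with Cadict. Raw counts were 633, 611 and 725 in Ctrl, 361, 355 and 380 in Cu-Cys and 23, 30 and 18 in Cadict libraries. In CPM these were 27.38, 26.45 and 31.61, then 16.66, 16.23 and 17.33, then 1.954, 2.615 and 1.511. Every Cadict library was thus far below every other one, and still above the limit that a count of 0 would allow, 0.252 to 0.261 CPM in Cadict libraries (3 counts, covering counting error only). Against Ctrl, the change with Cadict was -3.81 on the log2 scale (SE 0.143, adjusted p = 7.49e-13), a 14.1-fold fall that placed Nfkbie at percentile 1.6 of all tested genes. With Cu-Cys it was -0.77 (SE 0.0855, adjusted p = 6.63e-06), and in Cadict against Cu-Cys -3.05 (SE 0.154, adjusted p = 3.27e-11). Under library totals these were -4.76, -0.83 and -3.93.

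Tnfaip3 encodes A20, which removes and attaches ubiquitin chains on signalling proteins upstream of IKK. Its level was 14.1, 13.16 and 14.08 CPM in Ctrl, 4.66, 5.076 and 5.245 CPM in Cu-Cys and 11.64, 12.46 and 11.08 CPM in Cadict libraries. It was the member whose lowest group was Cu-Cys by a wide margin, and no group overlapped another. Cu-Cys-treated cells differed most, and Tnfaip3 fell there by 1.46 on the log2 scale (SE 0.0888, adjusted p = 2.45e-08), at percentile 0.912 of all genes. With TMM it was only slightly lower in Cadict than in Ctrl cells, -0.23 (SE 0.0864, adjusted p = 0.0196), but under library totals -1.19. The direct comparison of Cadict with Cu-Cys gave 1.23 with TMM (SE 0.101, adjusted p = 1.16e-08), a 2.35-fold difference, and 0.35 with library totals (adjusted p = 0.00427), higher in both but called only in the first. On the deposited TPM the log2 ratio of the means was 0.067 and the groups overlapped, so this difference depended on the scaling.

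Birc3 encodes cIAP2, a ubiquitin ligase of the TNF receptor complex that also restrains the non-canonical pathway. Its level was 20.33, 19.31 and 20.93 CPM in Ctrl, 12.04, 13.12 and 13.04 CPM in Cu-Cys and 4.419, 3.399 and 3.275 CPM in Cadict libraries, where the raw counts were 52, 39 and 39. The groups stepped down without overlap. In Cadict against Ctrl it fell by 2.45 on the log2 scale (SE 0.112, adjusted p = 8.13e-12), a 5.45-fold difference at percentile 7.52 of all tested genes. With Cu-Cys it fell by 0.66 (SE 0.0785, adjusted p = 1.14e-05), and in Cadict against Cu-Cys by 1.78 (SE 0.12, adjusted p = 1.03e-09). Under library totals these were -3.40, -0.73 and -2.67 on the log2 scale. Of its 50-base stretches, 7.56% also occurred in another annotated gene, so part of its reads may not be its own.

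Bcl3 encodes an atypical IκB protein of the nucleus that binds p50 and p52 dimers and can activate transcription with them. Its level was 11.59, 13.72 and 13.17 CPM in Ctrl, 5.814, 6.402 and 8.118 CPM in Cu-Cys and 3.484, 4.532 and 3.443 CPM in Cadict libraries. The groups did not overlap, although Cu-Cys replicate 3 stood above the other Cu-Cys libraries. Log2 fold changes were -1.75 in Cadict against Ctrl (SE 0.153, adjusted p = 2.3e-08, percentile 14.7 of all tested genes), -0.92 in Cu-Cys against Ctrl (SE 0.118, adjusted p = 2.4e-05) and -0.83 in Cadict against Cu-Cys (SE 0.169, adjusted p = 0.000292). Under library totals they were -2.70, -0.99 and -1.71, and the last was then called. Without Cu-Cys replicate 3, the value in Cu-Cys against Ctrl was -1.07 and was called. The annotated gene Gm16175 overlaps its exons on the opposite strand.

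**Figure D3:**
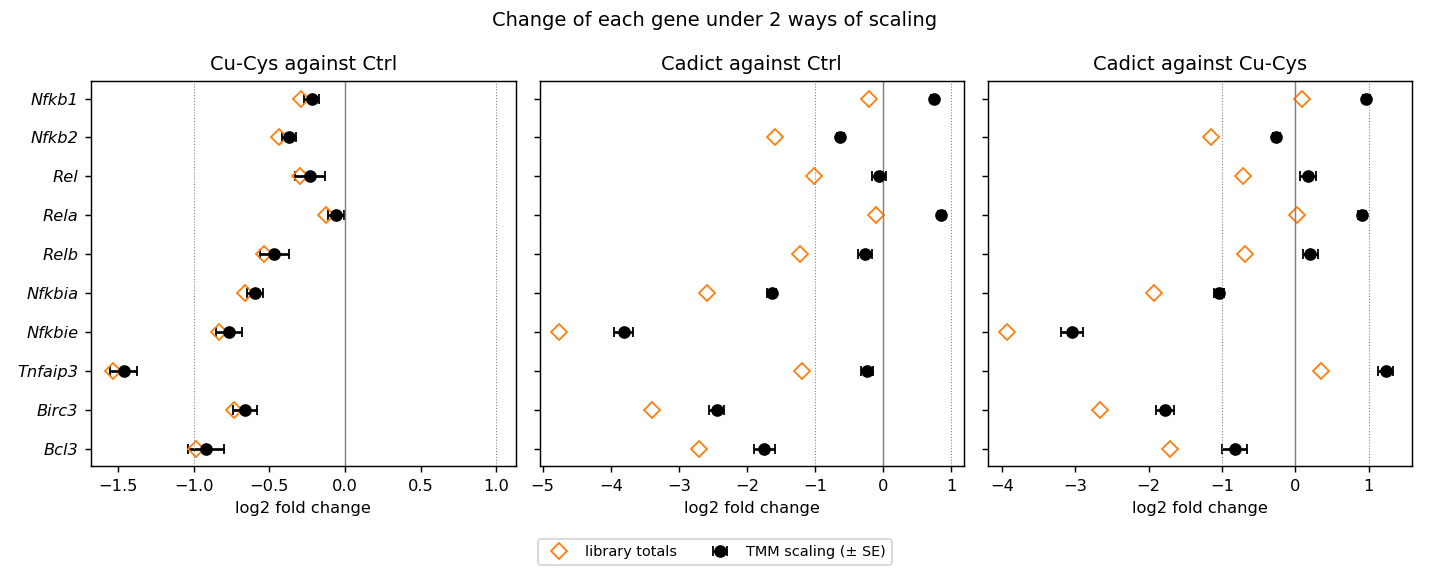
Log2 fold change of each gene in the 3 comparisons, with TMM scaling (filled circles, error bars are the SE of edgeR's fit) and with library totals (open diamonds). Dotted lines mark the 2-fold limit. The 2 scalings nearly coincide in Cu-Cys against Ctrl and lie about 0.95 apart in Cadict against Ctrl, where Nfkb1 and Rela change sign between them while Nfkbia, Nfkbie, Birc3 and Bcl3 are lower under both.

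Ratios of 2 genes within a library do not depend on how libraries are scaled. They were computed as the log2 ratio of counts plus 0.5. The 2-sided exact permutation test of 3 against 3 libraries cannot go below p = 0.1, which all 12 comparisons of 4 ratios reached because no groups overlapped. Each ratio was taken to Rela or Nfkb1, the members that rose with Cadict under TMM. The share of other gene pairs without overlap was not computed, so this count does not set the members apart. The ratio of Nfkbia to Rela was -0.93, -0.95 and -0.89 in Ctrl, -1.56, -1.33 and -1.48 in Cu-Cys and -3.41, -3.36 and -3.46 in Cadict libraries. The difference from Ctrl was -2.49 on the log2 scale in Cadict cells (a 5.6-fold lower ratio, exact p = 0.1) and -0.53 in Cu-Cys cells (1.45-fold). The ratio of Nfkb2 to Nfkb1, between the non-canonical and the canonical precursor, was 0.65, 0.63 and 0.54 in Ctrl, 0.44, 0.40 and 0.53 in Cu-Cys and -0.83, -0.69 and -0.79 in Cadict libraries. Here the difference from Ctrl was -1.38 in Cadict cells (2.59-fold lower) and -0.15 in Cu-Cys cells (1.11-fold). For Relb to Rela the difference was -1.13 in Cadict cells (2.19-fold) and -0.41 in Cu-Cys cells (1.33-fold), and for Rel to Rela it was -0.92 (1.9-fold) and -0.17 (1.13-fold). Between Cadict and Cu-Cys cells the differences were -1.95 (Nfkbia to Rela), -1.23 (Nfkb2 to Nfkb1), -0.72 (Relb to Rela) and -0.75 (Rel to Rela).

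**Figure D4:**
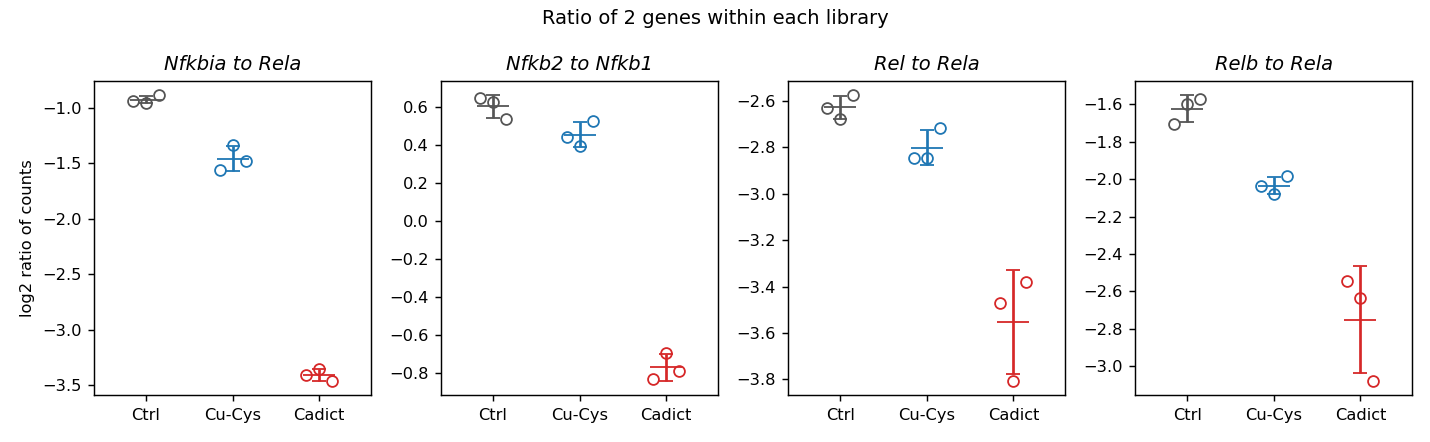
Log2 ratio of the counts of 2 genes in each of the 9 libraries (circles), with mean and SD (n = 3 per group); the vertical axes differ and do not start at 0. In each panel the Cadict libraries lie below all others, furthest for Nfkbia to Rela, where they are at -3.46 to -3.36 against -0.95 to -0.89 in Ctrl.

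Compared per transcript length within a library, the members changed rank. In Ctrl cells Nfkb2 was the most abundant at 157.1 ± 5.42 TPM (SD, n = 3). Nfkb1 (79.17 ± 0.256), Rela (78.7 ± 1.82) and Nfkbia (77.18 ± 1.06) followed. The range of Rela overlapped with those of Nfkb1 and Nfkbia, which did not overlap with each other. Next came Relb (31.22 ± 0.893) and Nfkbie (28.84 ± 2.54), which overlapped, then Bcl3 (18.24 ± 1.33) and Birc3 (16.83 ± 0.483), which overlapped too, and last Tnfaip3 (7.2 ± 0.366) and Rel (4.133 ± 0.1). In Cu-Cys cells the first places went to Nfkb2 (109.9 ± 6.59 TPM), Rela (68.31 ± 4.63), Nfkb1 (61.49 ± 0.946) and Nfkbia (46.19 ± 0.693), and Tnfaip3 was last at 2.37 ± 0.175. In Cadict cells Rela (57.83 ± 5.83 TPM) and Nfkb1 (53.85 ± 7.16) led with overlapping ranges, Nfkb2 came next at 42.17 ± 4.05, and Nfkbie was last at 0.8233 ± 0.135, overlapping with Birc3 at 1.253 ± 0.341. TPM values of different groups are not set against each other in this ranking, since they sum to a fixed total in each library, as values under library totals do.

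The makeup of the subunit transcripts was computed as each gene's share of the summed TPM of the 5 subunit genes, a measure chosen after the values were seen and given without a test. Nfkb2 made up 44.8% ± 0.698 in Ctrl, 41.7% ± 0.892 in Cu-Cys and 25.4% ± 0.313 in Cadict cells (SD, n = 3). Rela was at 22.5% ± 0.0899, 25.9% ± 0.685 and 34.8% ± 1.05, and Nfkb1 stood at 22.6% ± 0.497, 23.4% ± 0.902 and 32.3% ± 1.07. Relb went from 8.91% ± 0.345 to 7.74% ± 0.422 and 6.45% ± 1.06, and Rel was the smallest part in each group (1.18% ± 0.04, 1.21% ± 0.0617 and 0.969% ± 0.152). Together the canonical pair Rela and Nfkb1 was the larger part in Cadict cells, where the shares of both lay above every Ctrl and Cu-Cys library.

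Another IκB gene, Nfkbib, rose with Cadict where Nfkbia and Nfkbie fell. Nfkbib encodes IκBβ, an inhibitor of RelA that is not known as a fast feedback gene. It was named by the rule for the list of other IκB proteins, while setting it beside Nfkbia and Nfkbie was decided after the values were seen. Its level was 12.33, 10.26 and 12.51 CPM in Ctrl, 14.95, 13.99 and 16.14 CPM in Cu-Cys and 71.46, 74.95 and 65.24 CPM in Cadict libraries. Every Cadict library was above every other one, and the log2 fold change in Cadict against Ctrl was 2.59 (SE 0.0847, adjusted p = 1.58e-13), or 1.64 under library totals. Of the summed TPM of the 3 IκB genes, Nfkbib was 18.4% ± 1.36 in Ctrl, 31.0% ± 1.36 in Cu-Cys and 84.3% ± 0.537 in Cadict cells (SD, n = 3). Nfkbia was 59.5% ± 1.98, 51.8% ± 1.59 and 14.5% ± 0.701, and Nfkbie 22.2% ± 1.17, 17.2% ± 0.235 and 1.2% ± 0.238. The summed TPM of the 3 genes, on which these shares rest, was 123.4 to 134.4 in Ctrl, 86.98 to 92.44 in Cu-Cys and 65.65 to 71.32 in Cadict libraries. Since TPM has a fixed total in each library, these sums depend on the scaling and do not show a change in the amount of IκB transcripts.

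**Figure D5:**
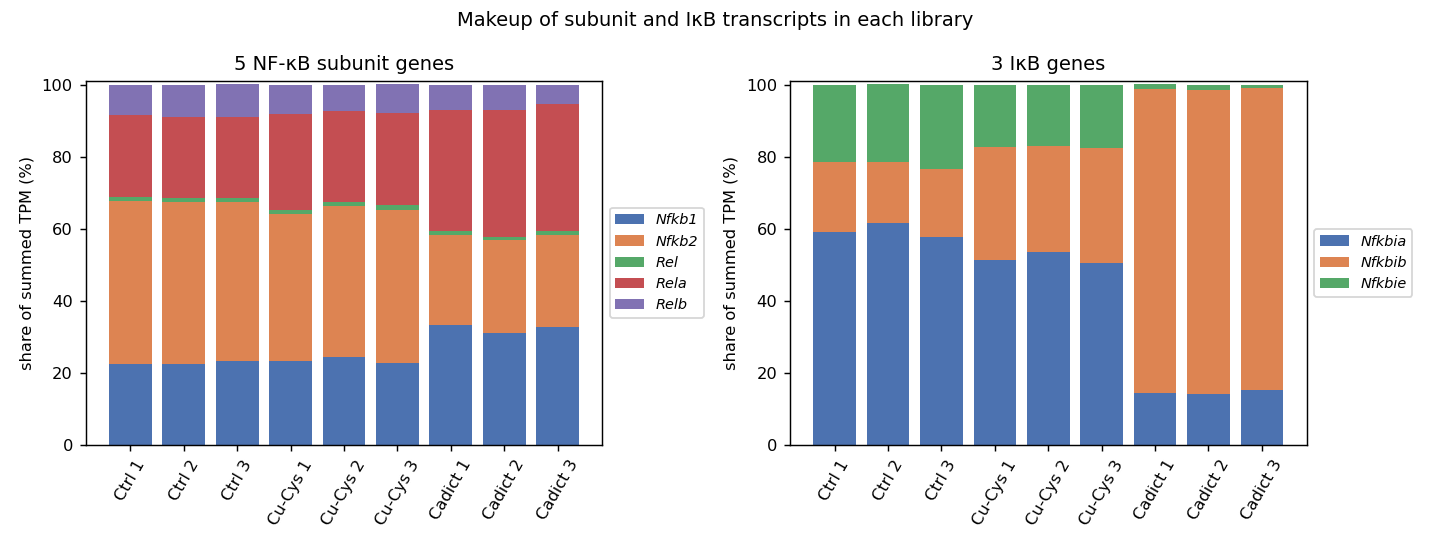
Share of each gene in the summed TPM of the 5 NF-κB subunit genes (left) and of 3 IκB genes (right), in percent, for each of the 9 libraries as stacked bars. In Cadict libraries Nfkb2 takes 25.1% to 25.7% of the subunit sum against 44.1% to 45.4% in Ctrl, and Nfkbib takes 83.7% to 84.7% of the IκB sum against 16.9% to 19.5%.

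The genes around these members were described by lists written from knowledge of the pathway, also with earlier results of these data known. Their counts and medians are given beside the median of all genes. Of 8 other IκB proteins and cofactors, 2 were called higher and 1 lower in Cadict against Ctrl, beside 20.7% and 27.1% of all genes. These counts alone do not set the list apart. The median log2 fold change was 0.13 (-0.82 under library totals). The higher ones were Nfkbib and Nkiras1, a Ras-like protein that binds IκBβ, which is outside the naming rule and was picked after its value was seen (2.02), and the lower one was Nkap (-1.76). With Cu-Cys 1 of the 8 was called, Nfkbiz, also named after its value was seen. It was lower, as were 1.47% of all genes, with 0.167% called higher. Nfkbiz encodes the atypical nuclear inhibitor IκBζ and was at 55.8 ± 1.65 CPM in Ctrl, 24.9 ± 0.132 in Cu-Cys and 34.3 ± 2.95 in Cadict cells (SD, n = 3), and its log2 fold change with Cu-Cys was -1.16 (SE 0.0625, adjusted p = 7.81e-09). With TMM its lowest group was Cu-Cys, as for Tnfaip3. Under library totals, Cadict against Cu-Cys was at -0.43 for Nfkbiz and at 0.35 for Tnfaip3, so this likeness depended on the scaling.

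Upstream of the members, more genes of each list were called lower than higher with Cadict, as over all tested genes (27.1% lower, 20.7% higher). Of 12 genes of the IKK complex and its kinases, 0 were called higher by edgeR or DESeq2 (2 were higher at an unadjusted p under 0.05) and 5 lower in Cadict against Ctrl, with a median of -0.54 (-1.49 under library totals). Tab1, an adaptor of the kinase TAK1, was at -2.11, and Tbk1, an IKK-related kinase, at -1.20. The others called, named after their values were seen, were Map3k14 (-1.17), which encodes NIK, the kinase of the non-canonical pathway, Ikbke (-2.23) and Map3k8 (-2.38). The genes of the IKK complex itself, also named after their values were seen, were not called. Chuk and Ikbkb rose (0.79 and 0.55) and Ikbkg fell (-0.36) with TMM, and they were at -0.16, -0.40 and -1.31 under library totals. At the looser threshold 2 of the 12 genes were higher and 9 lower, beside 40.6% and 47.1% of all genes. Of 24 tested receptors and adaptors of 25 listed, 3 were called higher and 11 lower, with a median of -0.48 (-1.43). Tnfrsf12a, the receptor for TWEAK, went from 83.2 ± 2.8 CPM in Ctrl to 774 ± 65.6 CPM in Cadict cells (SD, n = 3; log2 fold change 3.22), whereas Tlr3, which senses double-stranded RNA, was at -2.11. The other higher genes, named after their values were seen, were Bcl10 (1.39, and 0.44 under library totals) and Myd88 (1.04, and 0.09).

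Of 18 tested ubiquitin ligases and deubiquitinases of 19 listed, 2 were called higher and 5 lower in Cadict against Ctrl, close to the share of all genes called lower (27.1%), with a median of -0.075 (-1.03 under library totals). Rnf11, a partner of A20, went from 51.5 ± 1.35 CPM in Ctrl to 306 ± 21.5 CPM in Cadict cells (SD, n = 3; log2 fold change 2.57). Birc2, which encodes cIAP1, the closest relative of the member Birc3, was at -2.0, so both cIAP genes were called lower. The others called, named after their values were seen, were Ube2n (1.47, and 0.51 under library totals) and, lower, Rnf31 (-2.40), Tnip1 (-1.43), Tnip2 (-1.35) and Pdlim2 (-1.33). With Cu-Cys, 0 genes of the kinase, receptor and ubiquitin lists were called by edgeR or DESeq2, where only 0.167% of all genes were called higher and 1.47% lower by edgeR. At an unadjusted p under 0.05, 3 of 12 kinase genes were higher and 4 lower there, 4 of 24 receptors and adaptors higher and 10 lower, and 4 of 18 ubiquitin genes higher and 7 lower. The share of all genes at that threshold was not computed. At the looser threshold these counts were 3 and 2, 3 and 10, and 1 and 5, beside 22.6% of all genes higher and 22.4% lower.

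Target genes of NF-κB outside the members went both ways with Cadict and mostly down with Cu-Cys. Of 36 listed, 34 were in the table and 26 tested. In Cadict against Ctrl 10 were called higher and 7 lower, beside 20.7% and 27.1% of all genes, with a median log2 fold change of 0.70, which was -0.25 under library totals. The higher ones include Cxcl2, Il6 and Saa3, named after their values were seen, at 0.0289, 0.0433 and 0.145 CPM in Ctrl and 3.48, 1.34 and 1.31 CPM in Cadict cells. They passed the filter on low counts only through the Cadict libraries, so only a higher call was open to them. The 7 lower ones, also named after their values were seen, were Icam1 (-4.02, at 2.41 CPM in Ctrl), Irf1 (-3.74), Nos2 (-2.87), Ccl2 (-2.50), Plau (-2.23), Vcam1 (-1.64) and Zc3h12a (-1.10). Ccl2 went from 385 CPM in Ctrl to 67.8 CPM in Cadict cells. Ptgs2, which encodes cyclooxygenase-2, went from 47.3 ± 2.98 CPM in Ctrl to 104 ± 7.86 in Cu-Cys and 1360 ± 192 in Cadict cells (SD, n = 3; log2 fold change in Cadict against Ctrl 4.85), and Plk3, a stress-responsive kinase, was at 4.12. With Cu-Cys 1 was called higher (Ptgs2) and 9 lower, beside the 0.167% and 1.47% of all genes, with a median of -0.49. In Cadict against Cu-Cys 13 were called higher and 3 lower, beside 18.6% and 23.6% of all genes, with a median of 1.15 (0.27 under library totals). Cxcl2, Il6 and Saa3 are among the 13, with the same limit. Those in the lower direction, named after their values were seen, were Ccl2 (-1.26), Vcam1 (-1.04) and Irf1 (-3.20).

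The genes whose pair of log2 fold changes lay nearest to that of Nfkbia, in Cadict against Ctrl and in Cu-Cys against Ctrl, were Vcam1, Fbxl20 and Pde5a, at Euclidean distances of 0.00421, 0.0183 and 0.0511 among 8542 candidates averaging at least 10 CPM. Vcam1, a leukocyte adhesion molecule of the target list, was at -1.64 and -0.60 in these comparisons, where Nfkbia was at -1.64 and -0.59.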

How the data were processed

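The authors deposited a table with, per gene and library, an expected count, a TPM, an FPKM and a size-factor-scaled count, the last not used here. Its group averages were not used. The submitters' processing notes list HISAT2 2.1.0, Bowtie2 2.3.4.3, RSEM 1.3.1 and the builds GRCh38.p13 and GRCm39 without roles. The labels name a column kit and DNA nanoballs, the paper's methods TRIzol and Novaseq. Columns CC were read as Cu-Cys by initials and CCGE as Cadict, an inference from its components.

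Expected counts (2557 genes had values that were not whole) were rounded, and edgeR 4.0.16 (R 4.3.3) was used for the main analysis: filterByExpr, TMM and one quasi-likelihood fit of 3 groups over 9 libraries, with Benjamini-Hochberg adjustment over 11949 genes. The procedure was tested on simulated data in which a small set of genes rose and fell in balance. That setting does not cover a shift in makeup such as that of the Cadict libraries. The deposited TPM served for levels between genes and, with the deposited FPKM, for limma 3.58.1 with pseudocounts of 1 and 0.1 (FPKM 1) on the log2 scale. DESeq2 1.42.0, other filters, scalings and thresholds, the replicate block and leaving out each library were the other alternatives. Shared 50-base stretches and overlapping exons came from GENCODE M21.

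The members and lists were chosen with earlier results of these data known. Each list names its 2 called genes with the largest change in Cadict against Ctrl at an average of at least 10 CPM, and others are marked where named. Tnip3, Il1b, Bcl2a1b, Cdx2, Cd3e and Adgre1 were not analysed here. One further marker gene is not reported here. No libraries were identical, and log CPM correlated at 0.989 to 0.996 within groups.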

Additional observations from a re-analysis of the deposited data

How the results depend on the processing

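The counts of members called in Cadict against Ctrl (0 higher, 4 lower) were unchanged under DESeq2's size factors and Wald test, both filters, the replicate block and each left-out library. The number lower became 8 under library totals, beside 51.5% of all genes. With limma on TPM (pseudocounts 1 and 0.1) it was 7 and 8, beside 54.2% and 60.3%, and on FPKM 6, beside 41.5%. At the looser threshold 7 were lower and 2 higher, beside 47.1% and 40.6%. These larger counts thus came with larger shares of all genes called lower. In Cu-Cys against Ctrl 1 became 2 lower with limma on TPM at pseudocount 0.1 and 8 at the looser threshold, beside 1.54% and 22.4% of all genes. In Cadict against Cu-Cys (1 higher, 3 lower), 3 were higher with DESeq2's size factors, its Wald test and the looser threshold, beside 20.7%, 20.7% and 40.3% of all genes. With library totals, TPM (pseudocounts 1 and 0.1) and FPKM 0 were higher, beside 5.76%, 3%, 3.9% and 3.95%. There 5 were lower, beside 47.7%, 48.4%, 55.5% and 37.7%, as at the looser threshold, beside 45.6%. With each library left out, the number lower in Cu-Cys against Ctrl was 1 to 2. It was 2 without Cu-Cys replicate 3, which adds Bcl3, beside 1.1% of all genes. The number higher in Cadict against Cu-Cys was 1 to 2 (2 without Cadict replicate 2, which adds Nfkb1 at 1.00, beside 17.9%).

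Signs turned for 4 subunits. The values that follow are log2 fold changes in the order library totals, TPM with pseudocount 1, TPM with 0.1, FPKM. Nfkb1 in Cadict against Ctrl was at -0.21, -0.56, -0.56 and -0.21, and Rela at -0.10, -0.44, -0.45 and -0.10. In Cadict against Cu-Cys, Rel was at -0.71, -0.69, -0.96 and -0.44 and Relb at -0.68, -0.88, -0.94 and -0.61, and on TPM alone Nfkb1 was at -0.20 and -0.20 and Rela at -0.24 and -0.24. Rel in Cadict against Ctrl was at 0.059 with DESeq2's size factors and with its Wald test, and between -0.17 and 0.056 with each library left out (0.056 without Cadict replicate 2). Nfkbia, Nfkbie, Birc3 and Bcl3 were lower in Cadict than in Ctrl cells under each alternative run, and no ratio within libraries changed direction on TPM or with a library left out.

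Residuals of same-numbered libraries correlated at -0.143 to 0.135 over 9706 genes, so the numbers were not treated as pairs. With the replicate block the members called were 4 lower in Cadict against Ctrl, 1 lower with Cu-Cys, and between Cadict and Cu-Cys 1 higher and 3 lower, as without it. The shares of all genes called were 26.9%, 1.36%, 18.5% and 23.5% in the same order. Depth limits Nfkbie most, with 18 to 30 counts in Cadict libraries. No spike-in is named in the sources used here, and whether Rela and Nfkb1 rose per cell was not tested.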
